A study of Danio rerio with 12 samples.

Results

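Whole zebrafish embryos of the AB strain and wild-type (WT) genotype, exposed to 30 µM testosterone, were compared with embryos exposed to 0.1% DMSO, the solvent control, by sequencing of polyadenylated RNA. The comparison holds 6 of the 12 libraries of the series, 3 with testosterone and 3 with DMSO, chosen by their labelled treatment. Clutches 1, 2 and 4 each gave 1 library to each group. Exposure began between 2 and 4 hours after fertilisation and ended when the embryos were collected at 3 days. The series was designed to find genes that testosterone regulates through the membrane receptor GPRC6A. Its other 6 libraries had 30 µM testosterone together with a GPRC6A antagonist, calindol at 5 µM in 3 and EGCG at 100 µM in 3. These 6 entered the fit, and so the estimate of spread, but not the contrast. A library is the RNA of whole embryos, and the number of embryos pooled in each is not given in the sources used here.

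Testosterone is a steroid that binds the androgen receptor, a transcription factor that moves to the nucleus when it holds its ligand. Aromatase enzymes convert testosterone to estradiol, and in zebrafish the brain form of aromatase is made by radial glia and is itself induced by estrogen. Steroids are removed by cytochrome P450 enzymes and by enzymes that attach sulfate or glucuronic acid, chiefly in liver and gut.

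Total gene counts were 12668572 to 22510680 per library with testosterone and 18908888 to 20799427 with DMSO. Values per library are counts scaled to a common total (CPM) in the order of clutches 1, 2 and 4, and fold changes are log2 of testosterone over DMSO from edgeR's quasi-likelihood test, with Benjamini-Hochberg adjustment over 20237 genes. At an adjusted p under 0.05, 592 genes were higher and 686 lower with testosterone, which is 6.32% of genes tested, 2.93% higher and 3.39% lower. All 3 libraries of a group lay above all 3 of the other for 26.4% of genes tested, 13.4% higher and 13% lower with testosterone. The count of called genes was 624 on leaving out DMSO library 1, 744 on leaving out DMSO library 2 and 705 on leaving out DMSO library 4, against 1278 with all libraries. Of the called genes, 131 were higher and 298 lower by a log2 fold change of at least 1, and 481 differed by less than 1.5-fold. The median log2 fold change over all tested genes was 0.00, with 50.3% above 0. Replicates were less alike with testosterone than with DMSO, at Pearson r of 0.9696 to 0.9774 between pairs of testosterone libraries and 0.9839 to 0.9889 between pairs of DMSO libraries, across genes. Of 54 markers of 18 cell types or organs, 42 had at least 10 counts in each of the 6 libraries, and 16 of the 18 had at least 2 such markers. The muscle genes ckma and mylpfa, the neutrophil gene lyz, the macrophage gene mpeg1.1 and the enterocyte gene fabp2 were at 0 or near it in all 6, so they were not read as markers, while the muscle actin actc1b averaged 15360 CPM with testosterone and 17370 CPM with DMSO. Means were also 0 in both groups for the pronephros gene slc20a1a. With testosterone and DMSO they were 0.0848 and 0.104 CPM for the cartilage gene col2a1a and 0.187 and 0.101 CPM for the red cell gene alas2. In whole embryos, fewer cells of a type and less RNA per cell cannot be told apart.

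Genes of 79 lists of tissues, pathways and families were read against this background. They held 3325 of the tested genes and 373 of the called ones. A named gene that rose or fell kept its call under each of 12 other settings of the analysis unless a value is given beside it.

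**Figure D1:**
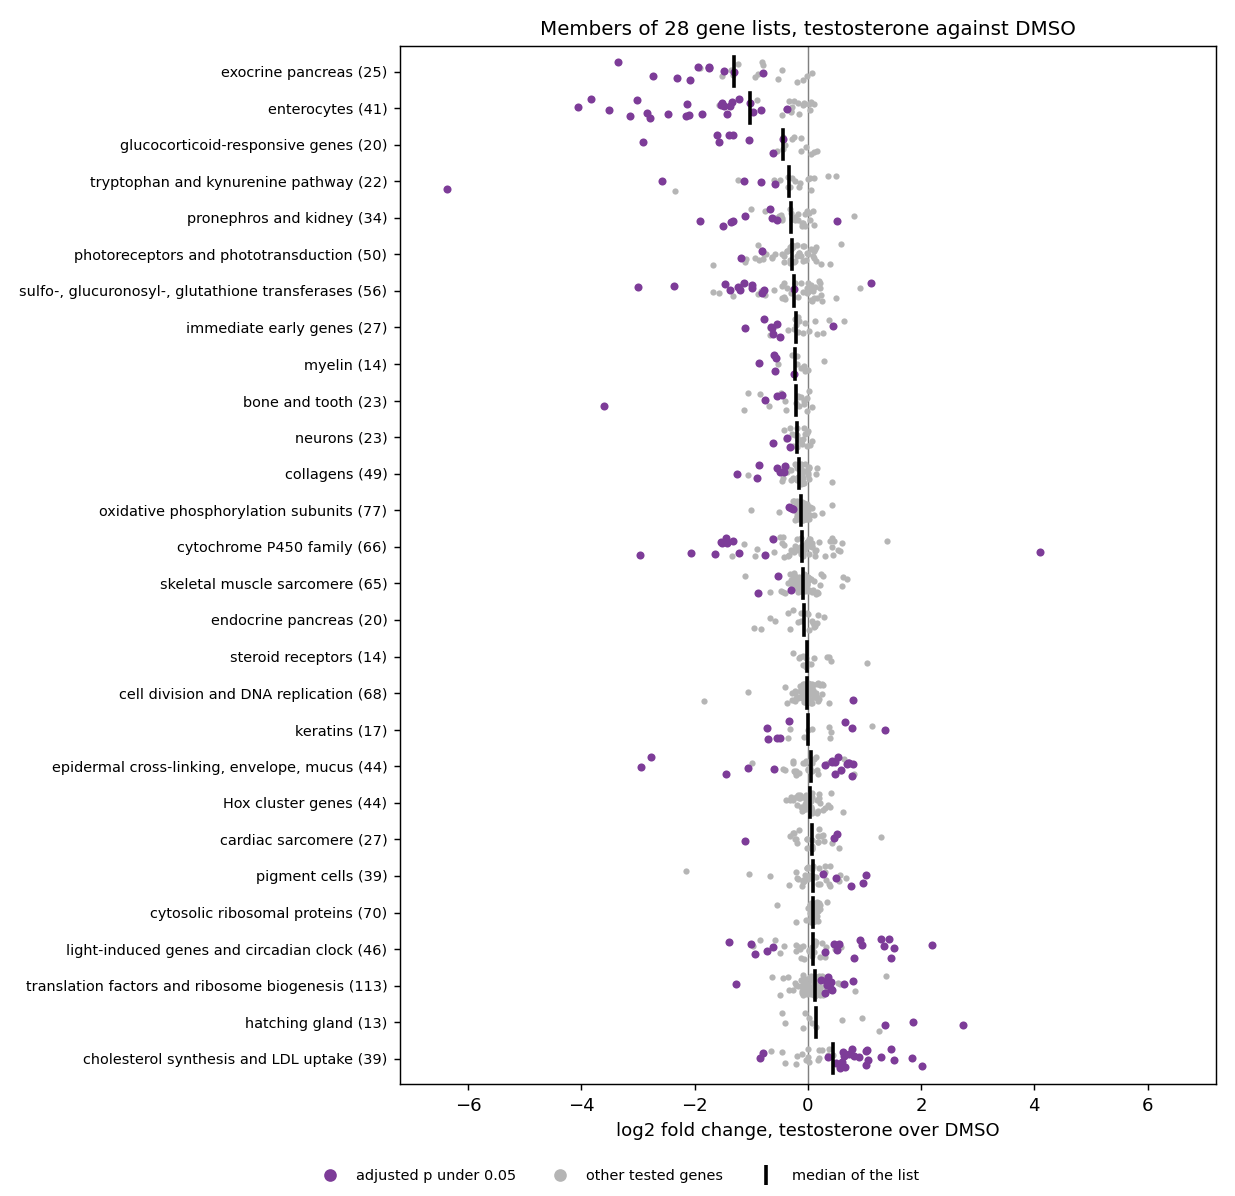
Log2 fold change of every tested member (points) of 28 gene lists, testosterone over DMSO, with the number tested in parentheses; violet points passed an adjusted p of 0.05, black bars are list medians. Lists run from exocrine pancreas, median −1.30, at the top to cholesterol synthesis and LDL uptake, median 0.45, at the bottom.

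Steroid receptors did not pass the test, while several steroid-responsive genes did. None of 14 tested steroid receptor genes was called by edgeR, with 3 at an unadjusted p under 0.05 and 0 called by the DESeq2 Wald test, and their median log2 fold change was −0.02. The gene gprc6a, for the membrane receptor named in the study design, had 3.19, 2.60 and 1.70 CPM with testosterone, against 0.794, 1.43 and 1.33 CPM with DMSO. The groups did not overlap, as in 26.4% of all genes tested, and the difference was not called (log2 fold change 1.05, SE 0.389, adjusted p 0.135). The androgen receptor gene ar had 0.717, 1.41 and 1.09 CPM with testosterone, against 0.794, 1.64 and 0.857 CPM with DMSO. Its ranges overlapped, with log2 fold change −0.01, SE 0.492, adjusted p 0.996. The estrogen receptor gene esr2b had 4.06, 3.36 and 3.76 CPM with testosterone, against 2.59, 2.81 and 2.95 CPM with DMSO, all 3 testosterone libraries above all 3 DMSO libraries, but was not called (log2 fold change 0.41, adjusted p 0.304). The estrogen receptor gene esr1 was too low to be tested, at 0.398, 0.217 and 0.655 CPM with testosterone, against 0.159, 0.318 and 0.238 CPM with DMSO. The glucocorticoid receptor gene nr3c1 had 13.8, 16.1 and 13.5 CPM with testosterone, against 10.32, 11.2 and 11.9 CPM with DMSO, and was not called (log2 fold change 0.38, adjusted p 0.154).

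Of 10 tested estrogen-responsive genes, 3 rose and 1 fell. The brain aromatase cyp19a1b had 40.7, 34.3 and 58.4 CPM with testosterone, against 2.91, 2.12 and 2.71 CPM with DMSO, and rose (log2 fold change 4.11, SE 0.242, adjusted p 3.15e-07). The estrogen-induced gene greb1 had 8.84, 7.37 and 8.47 CPM with testosterone, against 5.03, 3.82 and 4.0 CPM with DMSO. Every testosterone library lay above every DMSO library, and greb1 rose (log2 fold change 0.94, SE 0.177, adjusted p 0.00522). The yolk precursor vtg1, made by adult liver under estrogen, was at 1.27, 1.08 and 3.28 CPM with testosterone, against 0.106, 0.159 and 0.619 CPM with DMSO, and was not called (log2 fold change 2.65, adjusted p 0.299). Of the 11 other settings that gave vtg1 an adjusted p, 1 called it. The coagulation subunit gene f13a1a.1 had 16, 59 and 103 counts with testosterone, against 2, 1 and 0 counts with DMSO. The ratio of its summed counts, each over the group's total, was 64.4 (exact 95% interval 21.7 to 315, counting error only). Among 13 tested genes counted as androgen-responsive, 2 rose and 2 fell, and fkbp5 was among those that fell (log2 fold change −2.91). Lower androgen-responsive genes numbered 2 with all libraries, against 1 on leaving out testosterone library 1 or 2 or DMSO library 1, 2 or 4 or with clutch as a replicate block. The fatty acyl-CoA ligase acsl3b rose (log2 fold change 0.42, SE 0.0700, adjusted p 0.00198), as did the sulfotransferase sult2st3 (log2 fold change 1.12, SE 0.161, adjusted p 0.000649).

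Among genes that glucocorticoids induce in vertebrates 8 of 20 tested members fell and none rose, with a list median of −0.43. The co-chaperone of steroid receptors fkbp5 had 9.0, 6.56 and 8.65 CPM with testosterone, against 57.3, 64.1 and 59.5 CPM with DMSO. The DMSO libraries were tightly grouped and far above the testosterone libraries (log2 fold change −2.91, SE 0.134, adjusted p 1.53e-08). The transcription factor klf9 had 4.3, 5.80 and 7.38 CPM with testosterone, against 14.4, 20.5 and 19.4 CPM with DMSO, without overlap (log2 fold change −1.61, SE 0.212, adjusted p 0.000306). The gluconeogenic enzyme pck1 had 30.3, 31.7 and 36.2 CPM with testosterone, against 85.4, 79.4 and 82.7 CPM with DMSO, also without overlap (log2 fold change −1.33, SE 0.178, adjusted p 0.00035). The cytokine signalling inhibitor socs3a fell by 1.57, the clock gene per1a by 1.39, the transcription factor cebpd by 1.04 and the MAP kinase phosphatase dusp1 by 0.62 on the log2 scale. fkbp5 is also in the estrogen and androgen lists, and klf9 is in the thyroid list. Immediate early genes, which are transcribed within minutes of a stimulus, had 7 of 27 tested members lower and 1 higher. The nuclear receptor nr4a1 (log2 fold change −1.10, SE 0.175, adjusted p 0.00152) and the antiproliferative gene btg2 (log2 fold change −0.63, SE 0.112, adjusted p 0.00356) fell. The Krüppel-like factor klf2b rose (log2 fold change 0.44, SE 0.0851, adjusted p 0.00592). Called immediate early genes numbered 8 with all libraries, against 5 on leaving out testosterone library 2 or DMSO library 1 or 2.

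**Figure D2:**
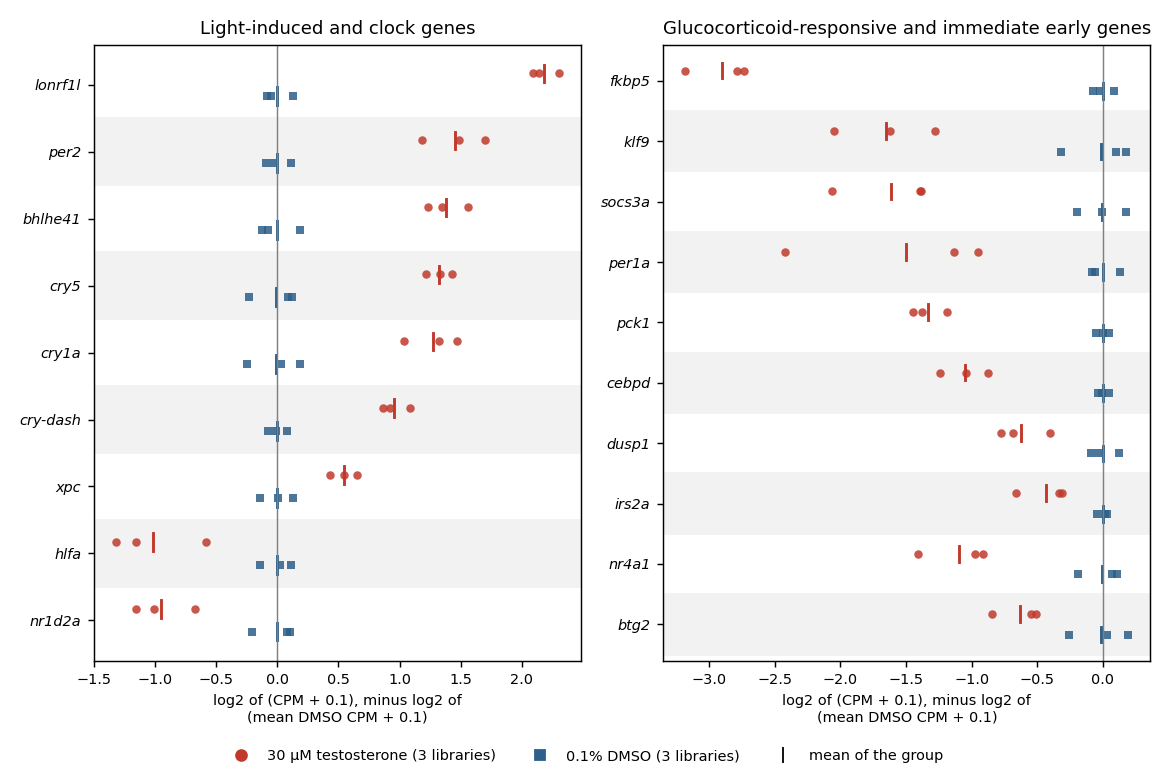
CPM of each library, as log2 of CPM plus 0.1 relative to the DMSO mean, for light-induced and clock genes (left) and glucocorticoid-responsive and immediate early genes (right); bars are group means of 3 libraries. The testosterone libraries lie right of the DMSO libraries for the upper 7 genes on the left and left of them for fkbp5, klf9, socs3a, per1a, pck1 and cebpd.

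Genes of steroid synthesis and inactivation fell more often than they rose, 4 against 2 of 18 tested. The largest change in this list was a rise, that of the aromatase cyp19a1b given above. Higher genes of this list numbered 2 with all libraries, against 1 on leaving out testosterone library 1 or DMSO library 1, 2 or 4 or in a fit of the 6 libraries alone. The cholesterol carrier star, which feeds steroid synthesis, had 2.71, 4.61 and 3.93 CPM with testosterone, against 7.83, 7.05 and 8.09 CPM with DMSO. The groups did not overlap (log2 fold change −1.01, SE 0.195, adjusted p 0.00592). The 17-hydroxylase of the interrenal cortisol pathway, cyp17a2, had 0.398, 0.217 and 0.524 CPM with testosterone, against 1.48, 1.91 and 1.52 CPM with DMSO, also without overlap (log2 fold change −2.07, SE 0.407, adjusted p 0.00669). The 5-alpha-reductase srd5a2a, which converts testosterone to dihydrotestosterone, had 6.05, 4.01 and 6.68 CPM with testosterone, against 11.3, 12.4 and 11.3 CPM with DMSO, and fell (log2 fold change −1.06, SE 0.218, adjusted p 0.00902). Among 15 tested thyroid axis genes 1 rose and 4 fell. The oxidase duox, which makes hydrogen peroxide for thyroid hormone synthesis and also acts in barrier epithelia, had 19.7, 11.7 and 16.6 CPM with testosterone, against 2.54, 3.61 and 4.0 CPM with DMSO. Its lowest testosterone value was above its highest DMSO value (log2 fold change 2.23, SE 0.258, adjusted p 9.79e-05). The hormone-inactivating deiodinase dio3b had 12.1, 12.1 and 14.6 CPM with testosterone, against 23.1, 25.1 and 25.9 CPM with DMSO, and fell (log2 fold change −0.93, SE 0.145, adjusted p 0.00127). Called thyroid axis genes numbered 5 with all libraries, against 3 on leaving out DMSO library 2. In the pituitary and hypothalamic list 2 of 17 tested genes were called, both higher. The neuropeptide gene npvf, which rose by 1.84 on the log2 scale, stands outside this list and its counts. Called pituitary and hypothalamic genes numbered 2 with all libraries, against 0 on leaving out DMSO library 1 or 4 and 1 on leaving out testosterone library 1 or 4. One of them, the growth hormone gene gh1, had 8.04, 6.45 and 7.73 CPM with testosterone, against 3.49, 5.52 and 4.19 CPM with DMSO (log2 fold change 0.75, SE 0.185, adjusted p 0.0262), and lost its call in 5 settings (adjusted p 0.0659 in a fit of the 6 libraries alone, 0.0709 on leaving out testosterone library 1, 0.0740 on leaving out testosterone library 4, 0.122 on leaving out DMSO library 1 and 0.101 on leaving out DMSO library 4).

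Genes of the intestinal lining were lower with testosterone. Of 41 tested enterocyte genes 23 fell and none rose, and the median log2 fold change was −1.02. Leaving out any 1 library left 18 to 23 called. The intestinal alkaline phosphatase alpi.2, a brush border enzyme, had 0.956, 0.325 and 0.349 CPM with testosterone, against 9.84, 6.47 and 5.33 CPM with DMSO. All testosterone libraries lay far below all DMSO libraries (log2 fold change −3.83, SE 0.449, adjusted p 0.000113). The peptide transporter slc15a1b, which carries dipeptides into enterocytes, had 1.99, 0.867 and 2.23 CPM with testosterone, against 10.6, 12.4 and 12.4 CPM with DMSO, and fell (log2 fold change −2.79, SE 0.295, adjusted p 4.44e-05). The lowest of its 3 testosterone values came from library 2. The chitinase genes chia.1 (log2 fold change −3.02, SE 0.319) and chia.2 (log2 fold change −2.83, SE 0.346), the endocytic receptor lrp2b (log2 fold change −3.14, SE 0.304) and the aminopeptidase anpepb (log2 fold change −2.46, SE 0.303) fell. The microvillus protein vil1 had 47.5, 30.6 and 54.4 CPM with testosterone, against 125, 133 and 127 CPM with DMSO. The intestinal transcription factor cdx1b had 19.99, 16.6 and 22.3 CPM with testosterone, against 39.0, 37.0 and 38.8 CPM with DMSO. Both fell without overlap (vil1 log2 fold change −1.54, SE 0.201, adjusted p 0.000292, and cdx1b log2 fold change −0.96, SE 0.157, adjusted p 0.0018). The glucose transporter slc5a1 (log2 fold change −1.38, SE 0.213), the amino acid transporter slc6a19b (log2 fold change −1.87, SE 0.203), the monoacylglycerol acyltransferase mogat2 (log2 fold change −1.42, SE 0.189) and the dipeptidyl peptidase dpp4 (log2 fold change −1.02, SE 0.130) fell as well. The called members of the list ran from structural and regulatory genes to digestive enzymes and carriers.

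Digestive enzymes of the exocrine pancreas were lower with testosterone. Of 25 tested genes 10 fell and none rose, 24 had a log2 fold change below 0, and the median was −1.30. That median was −0.93 on leaving out testosterone library 2 and −1.59 on leaving out testosterone library 4. The bile salt-stimulated lipase cel.2 had 0.637, 0.542 and 1.4 CPM with testosterone, against 6.83, 8.86 and 11.99 CPM with DMSO. Its groups did not overlap (log2 fold change −3.35, SE 0.331, adjusted p 3.01e-05). The trypsin-like gene prss59.1 had 8.04, 3.58 and 9.92 CPM with testosterone, against 32.2, 37.0 and 38.1 CPM with DMSO, with library 2 lowest of the 3 testosterone libraries (log2 fold change −2.31, SE 0.317, adjusted p 0.000419). The second bile salt-stimulated lipase, cel.1, fell by 2.74 and the elastase cela1.6 by 1.75 on the log2 scale. Trypsinogen prss1 had 49.6, 18.3 and 56.0 CPM with testosterone, against 94.0, 96.2 and 116 CPM with DMSO. Again library 2 was lowest. It was called with all libraries (log2 fold change −1.30, SE 0.313, adjusted p 0.0218), but not in 3 settings (adjusted p 0.0606 on leaving out DMSO library 1, 0.0563 on leaving out DMSO library 2 and 0.0884 on leaving out DMSO library 4). Called exocrine pancreas genes numbered 10 with all libraries, against 6 on leaving out DMSO library 1, 2 or 4. None of 20 tested endocrine pancreas genes was called, with 4 at an unadjusted p under 0.05 and 0 called by DESeq2. The list median was −0.07, and the islet transcription factor neurod1 had 238, 224 and 245 CPM with testosterone, against 233, 218 and 222 CPM with DMSO (log2 fold change 0.07, adjusted p 0.651).

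**Figure D3:**
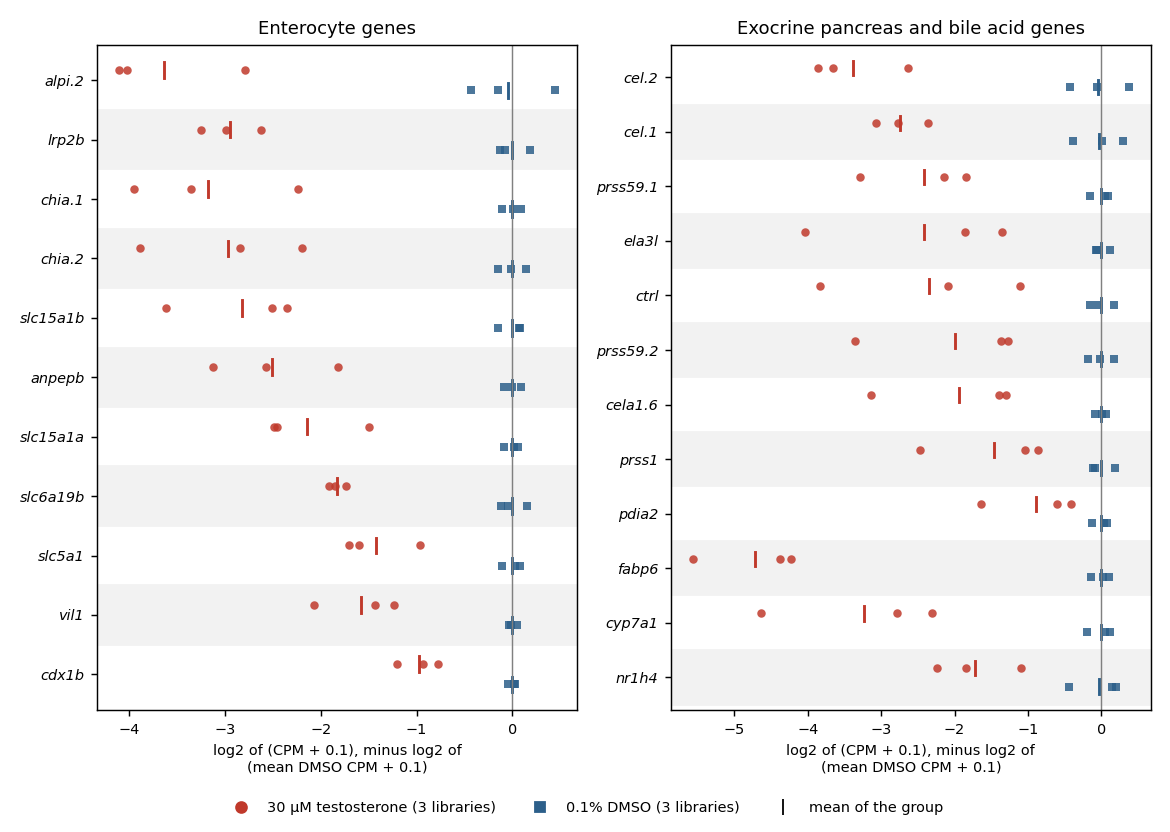
CPM of each library, as log2 of CPM plus 0.1 relative to the DMSO mean, for enterocyte genes (left) and exocrine pancreas and bile acid genes (right); bars are group means of 3 libraries. The testosterone libraries lie left of the DMSO libraries for every gene shown, and fabp6 lies furthest left.

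Several bile acid genes of gut and liver fell. Bile acids are made from cholesterol in liver, taken up again in the ileum and sensed by the nuclear receptor FXR. The ileal bile acid binding protein fabp6 had 1.04, 0.922 and 0.349 CPM with testosterone, against 21.5, 22.9 and 19.2 CPM with DMSO, far below DMSO in every testosterone library (log2 fold change −4.86, SE 0.493, adjusted p 3.3e-05). The enzyme that limits bile acid synthesis, cyp7a1, had 3.42, 0.867 and 4.80 CPM with testosterone, against 21.0, 25.04 and 26.2 CPM with DMSO. It fell (log2 fold change −2.97, SE 0.486, adjusted p 0.00187) and library 2 was lowest. The FXR gene nr1h4 had 1.59, 1.19 and 2.75 CPM with testosterone, against 4.39, 6.90 and 6.66 CPM with DMSO, and fell (log2 fold change −1.67, SE 0.318, adjusted p 0.00559). The sterol 12-alpha-hydroxylase cyp8b1, which sets the kind of bile acid made, had 10.8, 7.37 and 18.2 CPM with testosterone, against 31.6, 36.5 and 37.1 CPM with DMSO, and fell (log2 fold change −1.51, SE 0.234, adjusted p 0.00115). In the bile acid list as a whole 5 of 19 tested genes fell and 1 rose, and the median was 0.06. Called bile acid genes numbered 6 with all libraries, against 3 on leaving out DMSO library 1 or 4.

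Enzymes that modify drugs and steroids were lower more often than higher. Among sulfotransferases, glucuronosyltransferases and glutathione transferases 12 of 56 tested genes fell and 1 rose, with a median of −0.24. The sulfotransferase sult5a1 had 1.04, 1.46 and 1.53 CPM with testosterone, against 11.01, 10.6 and 11.5 CPM with DMSO. The groups were widely separate (log2 fold change −3.0, SE 0.237, adjusted p 3.13e-06). The glucuronosyltransferase ugt5b3 had 3.90, 2.49 and 3.67 CPM with testosterone, against 8.04, 10.1 and 9.28 CPM with DMSO, also separate (log2 fold change −1.45, SE 0.235, adjusted p 0.00173). Others that fell were ugt5b4 (log2 fold change −1.37, SE 0.197), ugt2a4 (log2 fold change −0.98, SE 0.150), the bilirubin-conjugating ugt1a1 (log2 fold change −0.81, SE 0.152) and the sulfotransferase sult2st2 (log2 fold change −1.19, SE 0.118), while sult2st3 was the 1 gene that rose. Copies of these families lie close in sequence, and how reads that match several copies were counted is not given in the sources used here. Of 66 tested genes of the cytochrome P450 list 11 fell and 1, cyp19a1b, rose, with a median of −0.11. The sterol demethylase cyp51, also a cytochrome P450, stands in the cholesterol list and not in this one, and it rose. Higher genes of the P450 list numbered 1 with all libraries, against 2 on leaving out testosterone library 1, with no filter on low counts, in a fit of the 6 libraries alone or by the DESeq2 Wald test and 3 on leaving out testosterone library 4. Besides the bile acid and steroid enzymes above, cyp2n13 (log2 fold change −1.64, SE 0.302), cyp2p8 (log2 fold change −1.52, SE 0.254), the brain cholesterol hydroxylase family member cyp46a1.1 (log2 fold change −1.32, SE 0.196) and cyp3c4 (log2 fold change −1.21, SE 0.249) fell. Of 18 targets of the aryl hydrocarbon receptor, the sensor of dioxins, 1 was called, ugt1a1, 5.56% against 6.32% of all genes. The best-known target cyp1a had 10.03, 9.87 and 9.87 CPM with testosterone, against 11.3, 11.5 and 10.8 CPM with DMSO (log2 fold change −0.17, adjusted p 0.815). Called aryl hydrocarbon receptor genes numbered 1 with all libraries, against 2 on leaving out DMSO library 1 and 2 with clutch as a replicate block. By the DESeq2 Wald test 3 of the 18 were called, where that test called 1663 of all 20237 genes.

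In the kynurenine pathway, which breaks down tryptophan, 5 of 22 tested genes fell and none rose, with a median of −0.33. The first step can be made by tdo2a in liver or by ido1. tdo2a fell (log2 fold change −6.38, SE 0.483, adjusted p 2.48e-06). ido1 had 1.11, 1.41 and 0.699 CPM with testosterone, against 6.77, 7.21 and 5.0 CPM with DMSO, without overlap (log2 fold change −2.57, SE 0.450, adjusted p 0.00311). The later enzyme haao had 18.7, 14.4 and 16.5 CPM with testosterone, against 31.5, 29.9 and 26.7 CPM with DMSO, and fell (log2 fold change −0.83, SE 0.171, adjusted p 0.00898), as did acmsd (log2 fold change −1.13, SE 0.153, adjusted p 0.000375). Other amino acid enzymes were divided. Of 53 tested genes of amino acid breakdown and the urea cycle 2 rose and 7 fell, and the median was 0.04. The glyoxylate aminotransferase agxtb (log2 fold change −1.40, SE 0.163), the methionine adenosyltransferase mat1a (log2 fold change −1.12, SE 0.186) and the glycine cleavage protein gcshb (log2 fold change −0.67, SE 0.129) fell. Called amino acid genes numbered 9 with all libraries, against 4 on leaving out DMSO library 1 or 2 and 5 on leaving out testosterone library 4 or DMSO library 4. In glucose handling, the muscle glycogen phosphorylase pygma (log2 fold change −0.82, SE 0.165) and the glucose-6-phosphate translocase slc37a4a (log2 fold change −0.61, SE 0.118) fell with pck1. In all, 4 of 33 tested genes of that list fell and 1 rose.

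Genes of cholesterol synthesis rose together. Of 39 tested members of the synthesis and low-density lipoprotein uptake list 20 rose and 2 fell, with a median of 0.45 and 29 members above 0. Lower genes of that list numbered 2 with all libraries, against 1 on leaving out testosterone library 1 or DMSO library 1, 2 or 4, in a fit of the 6 libraries alone or with clutch as a replicate block. Leaving out any 1 library left 17 to 23 called. The pathway runs from acetyl-CoA through mevalonate, squalene and lanosterol, and its genes are controlled by the transcription factor SREBP2. In its early part, the HMG-CoA synthase hmgcs1 had 151, 134 and 111 CPM with testosterone, against 80.3, 80.6 and 79.1 CPM with DMSO, all testosterone libraries above all DMSO libraries (log2 fold change 0.72, SE 0.131, adjusted p 0.00404). The mevalonate kinase mvk (log2 fold change 1.05, SE 0.197), the mevalonate diphosphate decarboxylase mvda (log2 fold change 1.02, SE 0.141) and the isomerase idi1 (log2 fold change 0.56, SE 0.0959) rose. The acetyl-CoA acetyltransferase acat2 had 33.4, 44.1 and 34.2 CPM with testosterone, against 27.3, 30.4 and 28.6 CPM with DMSO, and was not called (log2 fold change 0.37, adjusted p 0.0786). It was called in 1 of the 12 other settings. The largest increase in the list was that of squalene epoxidase, sqlea, with 30.02, 25.5 and 19.9 CPM with testosterone, against 6.46, 6.15 and 5.90 CPM with DMSO (log2 fold change 2.02, SE 0.219, adjusted p 5.68e-05). The lanosterol synthase lss rose by 1.3 on the log2 scale. Past lanosterol, the demethylase cyp51 had 69.6, 87.9 and 59.098 CPM with testosterone, against 26.5, 23.8 and 25.4 CPM with DMSO, and rose (log2 fold change 1.52, SE 0.203, adjusted p 0.00035). The sterol methyl oxidase msmo1 had 9.08, 11.7 and 7.21 CPM with testosterone, against 2.54, 2.60 and 2.67 CPM with DMSO, likewise without overlap (log2 fold change 1.84, SE 0.222, adjusted p 0.000147). The later enzymes nsdhl (log2 fold change 0.77, SE 0.149), hsd17b7 (log2 fold change 1.07, SE 0.136) and ebp (log2 fold change 0.90, SE 0.183) rose too. The regulator srebf2 had 181, 179 and 163 CPM with testosterone, against 113, 102 and 127 CPM with DMSO, and rose (log2 fold change 0.61, SE 0.0800, adjusted p 0.000295). The low-density lipoprotein receptors ldlra (log2 fold change 0.50, SE 0.0991) and ldlrb (log2 fold change 0.66, SE 0.110) rose, and the cholesterol exporter abca1a had 74.1, 73.5 and 98.8 CPM with testosterone, against 145, 144 and 153 CPM with DMSO, and fell (log2 fold change −0.84, SE 0.115, adjusted p 0.00043).

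**Figure D4:**
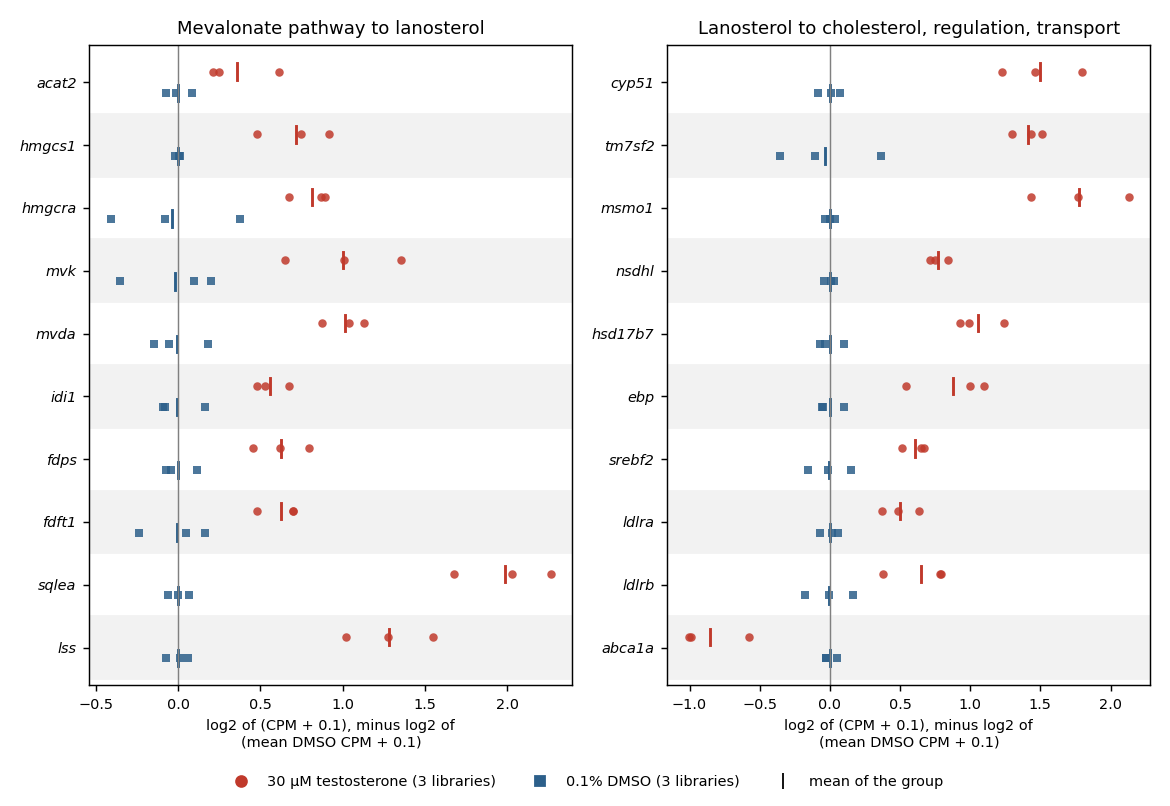
CPM of each library, as log2 of CPM plus 0.1 relative to the DMSO mean, for enzymes of the mevalonate pathway to lanosterol (left) and for later enzymes, regulators and transporters (right), in pathway order; bars are group means of 3 libraries. The testosterone libraries lie right of the DMSO libraries for all genes shown except abca1a.

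Fatty acid and lipoprotein genes changed in both directions. The fatty acid desaturase fads2, which makes long polyunsaturated fatty acids, had 24.1, 26.5 and 27.3 CPM with testosterone, against 7.94, 6.79 and 8.19 CPM with DMSO, and rose (log2 fold change 1.77, SE 0.142, adjusted p 3.42e-06). The elongase elovl2 of the same pathway had 13.5, 16.97 and 17.1 CPM with testosterone, against 8.73, 6.58 and 8.28 CPM with DMSO, and rose (log2 fold change 1.02, SE 0.195, adjusted p 0.00579). The triglyceride lipase family member pnpla3 fell (log2 fold change −0.80, SE 0.155, adjusted p 0.006). Over the 58 tested genes of fatty acid metabolism 5 rose and 3 fell, with a median of −0.04. Called fatty acid genes numbered 8 with all libraries, against 3 on leaving out DMSO library 1, 4 on leaving out DMSO library 4 and 5 on leaving out DMSO library 2. Among 51 apolipoprotein and lipoprotein assembly genes 4 rose and 8 fell, with a median of −0.03. apobb.2, which gives the backbone of secreted lipoproteins, rose (log2 fold change 0.92, SE 0.0966), and apoea, a lipid carrier, had 365, 369 and 304 CPM with testosterone, against 504, 494 and 452 CPM with DMSO, and fell (log2 fold change −0.48, SE 0.0870, adjusted p 0.00387). Called lipoprotein genes numbered 12 with all libraries, against 7 on leaving out DMSO library 2 or 4. Of 32 hepatocyte secreted proteins 2 rose and 4 fell, with a median of −0.21. The liver antimicrobial peptide leap2 (log2 fold change −1.23, SE 0.198) and the plasma retinol carrier rbp4 (log2 fold change −0.48, SE 0.0951) fell, while the protease inhibitor precursor ambp rose (log2 fold change 1.03, SE 0.176). The list also held rbp2a, an intracellular retinol-binding protein of enterocytes that the enterocyte list holds too, and it fell (log2 fold change −2.09, SE 0.383). Higher genes of the hepatocyte list numbered 2 with all libraries, against 1 on leaving out testosterone library 4 or DMSO library 1, 2 or 4, with clutch as a replicate block or with the gene length trend removed. In the coagulation list, 4 of 31 rose and 1 fell. Lower coagulation genes numbered 1 with all libraries, against 2 on leaving out testosterone library 2. The factor VII gene f7i fell (log2 fold change −1.30, SE 0.208), while the anticoagulant protein C gene proca (log2 fold change 0.83, SE 0.167, a symbol that 2 identifiers share) and the thrombin inhibitor serpine2 (log2 fold change 0.45, SE 0.0746) rose. In the complement list 1 of 29 tested genes was called, 3.45% against 6.32% of all genes, with a median of 0.07. It was the complement-activating lectin mbl2, which fell (log2 fold change −1.68, SE 0.277). Called complement genes numbered 3 on leaving out testosterone library 1 or with clutch as a replicate block. By the DESeq2 Wald test 4 were called.

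Light-induced and circadian genes changed in both directions. In zebrafish, light reaches the clock of most tissues directly and induces per2, cry1a and DNA repair genes. Of 46 tested members 13 rose and 5 fell, with a median of 0.10, and 13 to 18 were called when any 1 library was left out. per2 had 138, 96.9 and 119.6 CPM with testosterone, against 46.1, 39.9 and 41.8 CPM with DMSO, with every testosterone library above every DMSO library (log2 fold change 1.47, SE 0.109, adjusted p 2.48e-06). The repressor cry1a had 115, 94.0 and 126 CPM with testosterone, against 46.6, 52.0 and 38.5 CPM with DMSO, also separate (log2 fold change 1.29, SE 0.119, adjusted p 1.57e-05). The DNA photolyase cry5 had 18.2, 19.8 and 21.2 CPM with testosterone, against 8.31, 6.63 and 8.47 CPM with DMSO, and rose (log2 fold change 1.34, SE 0.137, adjusted p 3.38e-05). The RING finger gene lonrf1l had 94.1, 80.9 and 84.1 CPM with testosterone, against 17.8, 18.3 and 20.7 CPM with DMSO, with the narrowest spread of these genes relative to its difference (log2 fold change 2.19, SE 0.0814, adjusted p 1.4e-09). The photolyase relative cry-dash (log2 fold change 0.97, SE 0.0927) and the repressor bhlhe41 (log2 fold change 1.44, SE 0.244) also rose. In the opposite direction, the clock repressor nr1d2a had 57.6, 52.0 and 72.8 CPM with testosterone, against 101, 125 and 123.2 CPM with DMSO, and fell (log2 fold change −0.93, SE 0.126, adjusted p 0.000378). The output factor hlfa had 35.2, 23.6 and 21.1 CPM with testosterone, against 53.5, 47.8 and 57.2 CPM with DMSO, and fell (log2 fold change −1.0, SE 0.166, adjusted p 0.00196). The clock repressors per3 (log2 fold change 0.15, adjusted p 0.453) and nr1d2b (log2 fold change 0.08, adjusted p 0.751) were not called. The repair gene xpc, also light-induced in zebrafish, rose (log2 fold change 0.54, SE 0.0962), and the growth arrest gene gadd45ba fell (log2 fold change −0.91, SE 0.123). The hour of collection of each library is not given in the sources used here, so its part in the clock values was not tested.

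Skin genes changed in both directions. Of 17 tested keratin genes 3 rose and 5 fell, with a median of 0.01. The type I keratin cyt1l had 2438, 2485 and 2131 CPM with testosterone, against 839, 828 and 1063 CPM with DMSO. Its testosterone libraries lay far above the DMSO libraries (log2 fold change 1.37, SE 0.108, adjusted p 3.13e-06). cyt1 had 3625, 3732 and 3239 CPM with testosterone, against 1966, 1999 and 2178 CPM with DMSO, and rose (log2 fold change 0.79, SE 0.0877, adjusted p 7.05e-05). In contrast, krt92 had 176, 171 and 209 CPM with testosterone, against 299, 297 and 309.6 CPM with DMSO, and fell (log2 fold change −0.70, SE 0.0984, adjusted p 0.000518), and krt94 fell (log2 fold change −0.72, SE 0.0972). Called keratin genes numbered 8 with all libraries, against 5 on leaving out DMSO library 1 or 4. Among 44 genes of epidermal cross-linking, cornified envelope and mucus 12 rose and 5 fell. The plaque protein envoplakin, evpla (log2 fold change 0.79, SE 0.114), the S100-like icn2 (log2 fold change 0.77, SE 0.0810), annexin anxa1b (log2 fold change 0.72, SE 0.0936) and plakophilin pkp1b (log2 fold change 0.59, SE 0.0959) rose by under 1 log2 unit. The transglutaminase tgm1l3 had 0.398, 0.434 and 0.655 CPM with testosterone, against 2.75, 5.62 and 3.52 CPM with DMSO, and fell (log2 fold change −2.94, SE 0.430, adjusted p 0.000724). The mucin mucms1 had 0.398, 1.14 and 0.743 CPM with testosterone, against 8.15, 4.08 and 3.95 CPM with DMSO, and fell (log2 fold change −2.77, SE 0.530, adjusted p 0.00569). The mucin muc13b (log2 fold change −1.45, SE 0.187) and the mucin-folding gene agr2 (log2 fold change −0.60, SE 0.0817), both expressed in gut as well as skin, also fell. Called epidermal and mucus genes numbered 17 with all libraries, against 10 on leaving out DMSO library 1 or 4 and 11 on leaving out DMSO library 2. Ionocytes, the salt and ammonia transporting cells of the skin, had 1 of 22 genes higher and 3 lower. The ammonium transporter rhcga had 1.83, 0.651 and 1.05 CPM with testosterone, against 15.4, 19.4 and 20.8 CPM with DMSO, and fell (log2 fold change −4.04, SE 0.341, adjusted p 6.29e-06), and its paralog rhcgb fell (log2 fold change −1.82, SE 0.336). Called ionocyte genes numbered 4 with all libraries, against 2 on leaving out testosterone library 2 or DMSO library 1. In the hatching gland, which dissolves the egg envelope, 3 of 13 tested genes rose. The hatching enzyme he1.1 had 22.8, 25.1 and 39.3 CPM with testosterone, against 2.86, 7.0 and 3.28 CPM with DMSO, and rose (log2 fold change 2.74, SE 0.313, adjusted p 8.85e-05), while he1.2 (log2 fold change 1.86, SE 0.396) was not called in 1 setting (adjusted p 0.0618 on leaving out DMSO library 1). Called hatching gland genes numbered 3 with all libraries, against 1 on leaving out DMSO library 1. Of 39 pigment cell genes 5 rose and none fell. The melanosome transporter slc45a2 had 14.8, 14.5 and 14.9 CPM with testosterone, against 5.71, 8.12 and 7.90 CPM with DMSO, and rose (log2 fold change 1.02, SE 0.144, adjusted p 0.000555), as did the purine synthesis gene paics (log2 fold change 0.77, SE 0.111). Called pigment cell genes numbered 5 with all libraries, against 3 on leaving out testosterone library 2 or DMSO library 1, 2 or 4, 9 on leaving out testosterone library 4 and 3 with clutch as a replicate block.

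**Figure D5:**
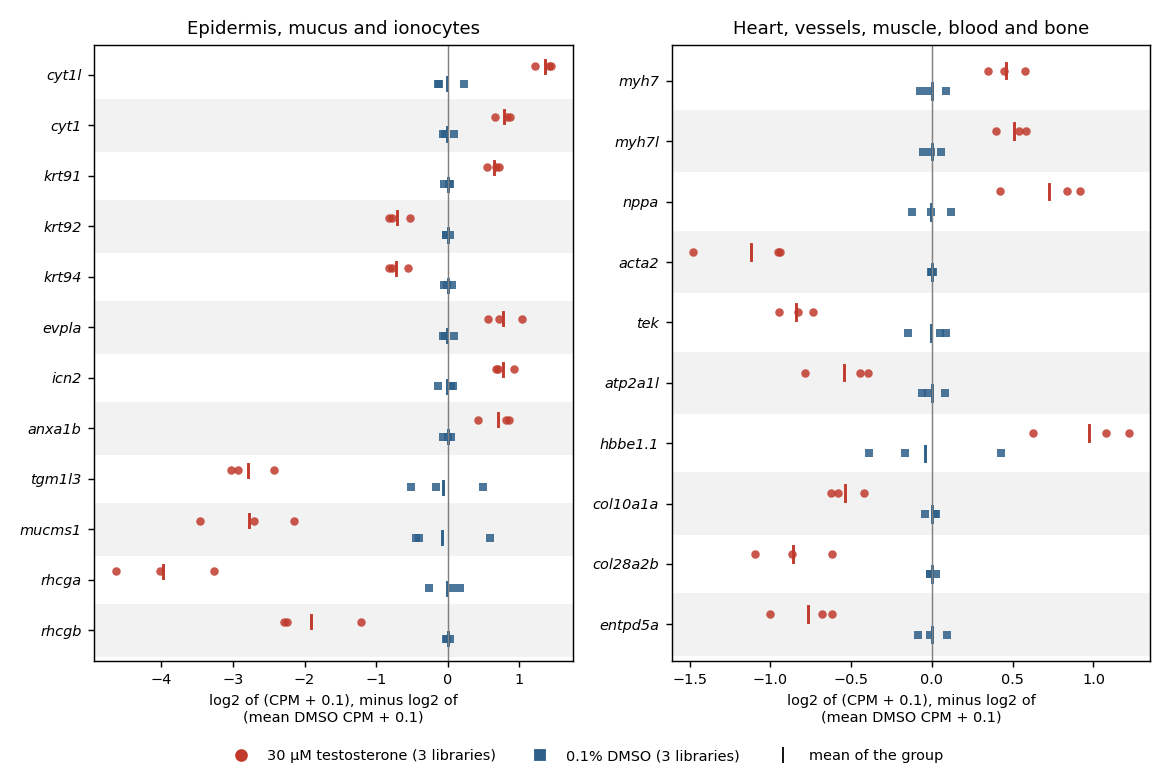
CPM of each library, as log2 of CPM plus 0.1 relative to the DMSO mean, for epidermis, mucus and ionocyte genes (left) and heart, vessel, muscle, blood and bone genes (right); bars are group means of 3 libraries. cyt1l, cyt1, krt91, myh7, myh7l, nppa and hbbe1.1 lie right of DMSO in every testosterone library, and rhcga lies furthest left.

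Transporters of kidney and gut fell more often than they rose. Of 34 tested genes of the pronephros, the larval kidney, 8 fell and 1 rose, with a median of −0.29. The tubule cadherin cdh17 had 83.1, 79.9 and 78.1 CPM with testosterone, against 133, 126 and 125 CPM with DMSO. It fell by a small but uniform amount (log2 fold change −0.67, SE 0.0735, adjusted p 5.75e-05). The inositol transporter slc5a11 had 1.83, 2.55 and 2.49 CPM with testosterone, against 5.82, 4.93 and 6.57 CPM with DMSO, and fell (log2 fold change −1.32, SE 0.247, adjusted p 0.00507). The sodium pump subunit atp1a1a.4 (log2 fold change −0.63, SE 0.0887), the phosphate transporter slc34a2b (log2 fold change −1.11, SE 0.111) and the aquaporin aqp8a.1 (log2 fold change −1.90, SE 0.374) fell as well. Several of these genes are also expressed in the intestine. Called pronephros genes numbered 9 with all libraries, against 5 on leaving out DMSO library 1. Over all 347 tested solute carriers 24 fell and 11 rose, with a median of −0.04. The glutamine transporter slc38a3a (log2 fold change −3.28, SE 0.563), the chloride exchanger slc26a3.2 (log2 fold change −1.87, SE 0.316) and the copper importer slc31a1 (log2 fold change −1.53, SE 0.201) were among those that fell. Called solute carrier genes numbered 35 with all libraries, against 19 on leaving out DMSO library 1 and 22 on leaving out DMSO library 2 or 4. Of 48 aquaporin, claudin and tight junction genes 4 fell and 2 rose, and the water channel aqp8a.2 (log2 fold change −2.14, SE 0.303) and the intestinal claudin cldn15a (log2 fold change −0.77, SE 0.139) were among those that fell. Called junction and water channel genes numbered 6 with all libraries, against 3 on leaving out DMSO library 1 or 4.

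The series title names cardiac edema, a swelling of the sac around the heart. Of 27 tested cardiac sarcomere genes 2 rose and 1 fell, with a median of 0.07. The myosin heavy chain myh7, of ventricle, had 317, 270.0 and 289 CPM with testosterone, against 209, 226 and 202 CPM with DMSO. All testosterone values exceeded all DMSO values, by a modest factor (log2 fold change 0.46, SE 0.0758, adjusted p 0.00196). Its relative myh7l rose by 0.51 on the log2 scale. The 1 list member that fell was acta2, a smooth muscle actin. It had 64.9, 45.2 and 65.7 CPM with testosterone, against 126, 125 and 126 CPM with DMSO (log2 fold change −1.10, SE 0.117, adjusted p 4.42e-05). The natriuretic peptide gene nppa, made by heart muscle under load, had 20.6, 21.8 and 15.4 CPM with testosterone, against 12.5, 10.6 and 11.4 CPM with DMSO, and rose (log2 fold change 0.74, SE 0.138, adjusted p 0.00472). Its receptor npr1a had 20.5, 17.3 and 20.1 CPM with testosterone, against 19.9, 18.2 and 21.3 CPM with DMSO (log2 fold change −0.04, adjusted p 0.898). Of 20 tested natriuretic peptide and cGMP genes 1 rose and 1 fell, with a median of −0.05. Called ones numbered 2 with all libraries, against 1 on leaving out testosterone library 4 or DMSO library 2 or 4. By the DESeq2 Wald test 4 were called. Of 26 cardiac transcription and growth factor genes 1 rose, 3.85% called against 6.32% of all genes. None of 21 genes of cardiac calcium handling was called, with 2 at an unadjusted p under 0.05 and 1 called by DESeq2. Their median was −0.02, and the phospholamban gene pln, an inhibitor of the calcium pump, had 13.5, 10.8 and 13.3 CPM with testosterone, against 9.95, 8.43 and 8.71 CPM with DMSO (log2 fold change 0.47, adjusted p 0.0578). Not called here, pln was called in 2 of the 12 other settings. In the endothelium list 1 of 35 genes rose and 1 fell, 5.71% called against 6.32% of all genes. The angiopoietin receptor tek had 6.69, 7.26 and 7.77 CPM with testosterone, against 11.7, 13.5 and 13.8 CPM with DMSO, and fell (log2 fold change −0.84, SE 0.137, adjusted p 0.0018). Called endothelial genes numbered 2 with all libraries, against 1 on leaving out testosterone library 1 or 2 or DMSO library 1, 2 or 4 and 1 with clutch as a replicate block. Among 35 globin and red cell genes 2 rose and 1 fell, 8.57% called against 6.32% of all genes. The embryonic globin hbbe1.1, which has close copies that reads may not tell apart, had 513, 772 and 699.9 CPM with testosterone, against 446, 295 and 254 CPM with DMSO, and rose (log2 fold change 1.0, SE 0.186, adjusted p 0.00482). Called red cell genes numbered 3 with all libraries, against 1 on leaving out DMSO library 1 or 4 and 1 with clutch as a replicate block.

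In the nervous system and eye most list medians lay slightly below 0. Several of these medians moved nearer 0 on leaving out testosterone library 2. Of 23 neuronal genes 3 fell and 21 had a log2 fold change below 0, with a median of −0.18. The median was −0.25 on leaving out testosterone library 4 and −0.10 on leaving out testosterone library 2. Called neuronal genes numbered 3 with all libraries, against 0 on leaving out testosterone library 1 or DMSO library 1 or 2 and 1 on leaving out DMSO library 4. By the DESeq2 Wald test 5 were called. Of 14 myelin genes 5 fell, with a median of −0.22. The myelin protein gene plp1b had 7.49, 5.53 and 7.51 CPM with testosterone, against 11.4, 14.3 and 11.5 CPM with DMSO, without overlap. It fell (log2 fold change −0.86, SE 0.203, adjusted p 0.0207), but was not called in 3 settings (adjusted p 0.0703 on leaving out testosterone library 2, 0.0506 on leaving out DMSO library 1 and 0.0941 on leaving out DMSO library 2). Called myelin genes numbered 5 with all libraries, against 1 on leaving out DMSO library 1 or 4, 2 on leaving out DMSO library 2, 3 on leaving out testosterone library 1, 2 or 4 and 3 with clutch as a replicate block. In the radial glia list 1 of 19 genes was called, cyp19a1b, 5.26% against 6.32% of all genes, and the median was 0.06. Called radial glia genes numbered 1 with all libraries, against 3 on leaving out testosterone library 2 and 2 by the DESeq2 Wald test or with the gene length trend removed. Of 50 photoreceptor and phototransduction genes 2 fell, 4.0% called against 6.32% of all genes. In that list 40 genes had a log2 fold change below 0, with a median of −0.28. The ultraviolet cone opsin opn1sw1 had 1126, 454 and 1619 CPM with testosterone, against 1974, 2020.1 and 2104 CPM with DMSO. The cone transducin gnat2 had 317, 136 and 469.5 CPM with testosterone, against 574, 570.3 and 562 CPM with DMSO. In both, library 2 was lowest and the testosterone libraries differed 3-fold or more among themselves, with no call (opn1sw1 log2 fold change −0.93, adjusted p 0.142, and gnat2 log2 fold change −0.89, adjusted p 0.133). Each of these 2 genes was called in 1 of the 12 other settings. The list median was −0.57 on leaving out testosterone library 4 and −0.01 on leaving out testosterone library 2. Called photoreceptor genes numbered 2 with all libraries, against 0 on leaving out testosterone library 1 or DMSO library 1, 2 or 4, 1 on leaving out testosterone library 2, 10 on leaving out testosterone library 4 and 1 with clutch as a replicate block. Lens crystallins had 1 of 39 higher, 2.56% called against 6.32% of all genes. Called crystallin genes numbered 1 with all libraries, against 0 on leaving out DMSO library 4 and 4 on leaving out testosterone library 2. Of 116 neurotransmitter receptor genes 1 rose and 2 fell, and of 165 ion channel genes 1 rose and 3 fell. In each case the share called was smaller than the 6.32% over all genes. Their list medians, −0.08 and −0.06, were 0.02 and −0.02 on leaving out testosterone library 2. Called neurotransmitter receptor genes numbered 3 with all libraries, against 0 on leaving out testosterone library 2 or 4 or DMSO library 1 or 4, 1 on leaving out testosterone library 1 and 1 with clutch as a replicate block. Called ion channel genes numbered 4 with all libraries, against 0 on leaving out DMSO library 1 or 2, 1 on leaving out testosterone library 2 or DMSO library 4 and 2 with clutch as a replicate block.

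Collagen and bone genes leaned low. Of 49 collagens 7 fell and none rose, 40 had a log2 fold change below 0, and the median was −0.15. The median was −0.19 on leaving out testosterone library 2 and −0.09 on leaving out testosterone library 4. Called collagen genes numbered 7 with all libraries, against 2 on leaving out DMSO library 1, 3 on leaving out testosterone library 4 and 4 on leaving out DMSO library 4. col10a1a, of hypertrophic cartilage and bone, had 258, 249.8 and 289 CPM with testosterone, against 374, 393 and 391 CPM with DMSO, and fell (log2 fold change −0.54, SE 0.0788, adjusted p 0.000732). The collagen gene col28a2b had 13.9, 11.7 and 9.96 CPM with testosterone, against 21.2, 21.2 and 21.7 CPM with DMSO, and fell (log2 fold change −0.86, SE 0.166, adjusted p 0.00583). The bone gene entpd5a, which supplies phosphate for mineral, fell (log2 fold change −0.76, SE 0.140). Among 65 skeletal muscle sarcomere genes 3 fell and none rose, 4.62% called against 6.32% of all genes, with a median of −0.09. The fast muscle calcium pump atp2a1l had 560.3, 579.7 and 442 CPM with testosterone, against 751, 808 and 729.8 CPM with DMSO, and fell (log2 fold change −0.53, SE 0.104, adjusted p 0.00632). Called skeletal muscle genes numbered 3 with all libraries, against 1 on leaving out DMSO library 1 or 2 and 6 on leaving out testosterone library 2. By the DESeq2 Wald test 7 of the 65 were called, where that test called 1663 of all 20237 genes. Whether the list lay below the share over all genes thus depended on the test. None of 18 muscle regulators was called, with 1 at an unadjusted p under 0.05 and 1 called by DESeq2. In energy metabolism, 68 of 77 nuclear-encoded oxidative phosphorylation subunits lay below 0, with a median of −0.12. The test called 3 of the 77, 3.9% against 6.32% of all genes. The ATP synthase subunit atp5f1b had 1409, 1436 and 1364 CPM with testosterone, against 1841, 1729.6 and 1712 CPM with DMSO, and fell (log2 fold change −0.33, SE 0.0641, adjusted p 0.00649). Called oxidative phosphorylation genes numbered 3 with all libraries, against 1 on leaving out testosterone library 1 or 4 or DMSO library 1 or 4. By the DESeq2 Wald test 5 were called. The lactate dehydrogenase ldha, a hypoxia-responsive gene, had 309, 289 and 269 CPM with testosterone, against 429, 436 and 419 CPM with DMSO, and fell (log2 fold change −0.57, SE 0.0741, adjusted p 0.000293).

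Genes of ribosome assembly leaned high. Of 113 tested translation factor and ribosome biogenesis genes 12 rose and 1 fell, 83 lay above 0, and the median was 0.12. The nucleolar protein nop56 had 253, 231 and 235 CPM with testosterone, against 188, 194 and 179 CPM with DMSO. The difference was small and without overlap (log2 fold change 0.36, SE 0.0706, adjusted p 0.00683). The initiation factor relative eif4g2b rose (log2 fold change 0.63, SE 0.0832). The translation repressor eif4ebp1 had 13.5, 25.8 and 17.3 CPM with testosterone, against 44.1, 52.5 and 41.2 CPM with DMSO, and was the 1 gene that fell (log2 fold change −1.27, SE 0.181, adjusted p 0.000574). Called translation and ribosome assembly genes numbered 13 with all libraries, against 4 on leaving out DMSO library 1, 5 on leaving out DMSO library 4 and 7 on leaving out DMSO library 2. Of 70 cytosolic ribosomal proteins none was called, though 67 lay above 0, with a median of 0.10. At an unadjusted p under 0.05 there were 9 such genes, and the DESeq2 Wald test called 2. Cell division genes were level, with 1 of 68 higher, 1.47% called against 6.32% of all genes, and a median of −0.01. The condensin subunit ncaph was the gene that rose (log2 fold change 0.80, SE 0.164, adjusted p 0.00866). Called cell division genes numbered 1 with all libraries, against 2 on leaving out testosterone library 4 and 5 on leaving out testosterone library 2. By the DESeq2 Wald test 3 were called.

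Immune, stress and lysosome genes gave scattered calls. The macrophage perforin gene mpeg1.2 had 8.68, 6.23 and 7.47 CPM with testosterone, against 33.97, 33.6 and 36.8 CPM with DMSO, and fell (log2 fold change −2.23, SE 0.168, adjusted p 2.48e-06), while the macrophage growth factor receptor csf1ra had 35.6, 34.2 and 28.3 CPM with testosterone, against 31.8, 27.6 and 31.8 CPM with DMSO (log2 fold change 0.10, adjusted p 0.754). In the list of 28 macrophage genes 1 rose and 2 fell, 10.7% called against 6.32% of all genes. In that of 26 neutrophil genes 2 fell, 7.69% called and near that share. Called macrophage genes numbered 3 with all libraries, against 1 on leaving out testosterone library 4 or DMSO library 1 or 4. Called neutrophil genes numbered 2 with all libraries, against 1 on leaving out DMSO library 1, 2 or 4. Of 141 cytokine, chemokine and acute phase genes 4 rose and 6 fell, 7.09% called against 6.32% of all genes. The NF-kappaB inhibitor nfkbiaa had 8.44, 10.1 and 11.01 CPM with testosterone, against 19.9, 19.4 and 21.7 CPM with DMSO, and fell (log2 fold change −1.04, SE 0.163, adjusted p 0.00136), as did nfkbiab (log2 fold change −0.61, SE 0.0816) and the itaconate-synthesis gene irg1l (log2 fold change −1.15, SE 0.176). Called cytokine genes numbered 10 with all libraries, against 5 on leaving out testosterone library 4 or DMSO library 1 or 4 and 6 on leaving out DMSO library 2. In the Nrf2 antioxidant list 4 of 35 rose and none fell, among them the autophagy receptor sqstm1 (log2 fold change 0.67, SE 0.131) and the transketolase tktb (log2 fold change 0.48, SE 0.0876). Called Nrf2 genes numbered 4 with all libraries, against 2 on leaving out testosterone library 4 or DMSO library 1, 2 or 4. Heat shock genes had 2 of 52 higher and 5 lower, with the small heat shock protein hspb6 among the lower (log2 fold change −0.94, SE 0.108). Called heat shock genes numbered 7 with all libraries, against 1 on leaving out DMSO library 1 or 4, 2 on leaving out testosterone library 4, 3 on leaving out DMSO library 2 and 4 with clutch as a replicate block. Among 66 lysosome genes 4 rose and 3 fell. The protease ctsd had 85.4, 89.4 and 92.0 CPM with testosterone, against 54.8, 48.5 and 51.9 CPM with DMSO, and rose (log2 fold change 0.78, SE 0.0792, adjusted p 3.3e-05), while ctsl.1 had 5.18, 7.64 and 4.46 CPM with testosterone, against 17.8, 17.2 and 18.8 CPM with DMSO, and fell (log2 fold change −1.64, SE 0.201, adjusted p 0.000168). Called lysosome genes numbered 7 with all libraries, against 4 on leaving out DMSO library 4. The cathepsin gene ctsbb had 0 counts in each of the 3 testosterone libraries, against 19, 29 and 39 counts with DMSO. Its DMSO mean was 26.3 times a floor of 3 counts over the testosterone group. The ratio of its summed counts, testosterone over DMSO and each over the group's total, had an exact 95% interval of 0 to 0.047 (counting error only).

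Among patterning genes, none of 44 Hox genes and none of 25 Notch targets was called, with medians of 0.05 and 0.06. At an unadjusted p under 0.05 there were 3 Hox genes and 3 Notch targets, and the DESeq2 Wald test called 0 and 0. Of 26 targets of the BMP, FGF and Hedgehog pathways 5 rose and none fell, and of 16 Wnt targets 3 rose and none fell. The Hedgehog receptor ptch1, itself a target of the pathway, had 20.9, 22.3 and 21.0 CPM with testosterone, against 10.8, 9.92 and 14.7 CPM with DMSO, and rose (log2 fold change 0.86, SE 0.162, adjusted p 0.00536). A second identifier with that symbol had 0 counts in all 6 libraries. The FGF inhibitor spred2a rose (log2 fold change 0.30, SE 0.0624), and among the Wnt targets the Wnt deacylase notum1b rose (log2 fold change 0.68, SE 0.139). Called BMP, FGF and Hedgehog genes numbered 5 with all libraries, against 3 on leaving out testosterone library 1 or DMSO library 1, 2 or 4. Called Wnt target genes numbered 3 with all libraries, against 1 on leaving out testosterone library 2 or DMSO library 1, 2 or 4 and 1 with clutch as a replicate block. Germ cell and gonad genes had no call among 21 tested, 1 at an unadjusted p under 0.05 and 0 by DESeq2, with a median of −0.24 that ran from −0.59 to −0.14 over the other settings.

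Outside the lists, 15 genes with the smallest p in each direction were read. Among those that rose, the prostaglandin D synthase gene ptgdsb.1 had 137, 175 and 150.3 CPM with testosterone, against 65.1, 65.9 and 65.9 CPM with DMSO. Its DMSO values were almost equal and its testosterone values more than 2-fold higher (log2 fold change 1.23, SE 0.0937, adjusted p 2.48e-06). The stress-induced growth inhibitor osgn1 had 43.1, 49.7 and 38.3 CPM with testosterone, against 17.5, 16.5 and 17.8 CPM with DMSO, and rose (log2 fold change 1.34, SE 0.116, adjusted p 9.11e-06). The acetoacetyl-CoA synthetase aacs, a ketone-using enzyme of lipid synthesis, had 54.2, 54.1 and 51.3 CPM with testosterone, against 28.4, 28.9 and 29.6 CPM with DMSO, and rose (log2 fold change 0.88, SE 0.0806, adjusted p 1.52e-05). The DNA repair helicase ercc6 (log2 fold change 0.75, SE 0.0810), the lipoxygenase alox12 (log2 fold change 0.94, SE 0.0952), the lysosomal membrane gene scarb2a (log2 fold change 0.93, SE 0.0954), the selenoprotein selenop2 (log2 fold change 0.84, SE 0.0934) and the sleep-linked neuropeptide npvf (log2 fold change 1.84, SE 0.229) rose too. The other higher genes were dhrs12, tia1l, aep1, pogzb, ggact.2, dgcr2 and mpdu1a, at log2 fold changes of 0.80 to 2.65. Among those that fell, the galectin lgals2b had 69.3, 60.6 and 71.5 CPM with testosterone, against 168, 149.5 and 160.2 CPM with DMSO, and fell (log2 fold change −1.25, SE 0.109, adjusted p 9.56e-06). The brush border myosin myo7bb had 3.19, 2.33 and 3.54 CPM with testosterone, against 12.2, 11.2 and 12.8 CPM with DMSO, and fell (log2 fold change −1.99, SE 0.212, adjusted p 4.56e-05). The chitin synthase chs1 had 3.66, 2.06 and 2.31 CPM with testosterone, against 10.7, 11.2 and 9.33 CPM with DMSO, and fell (log2 fold change −1.99, SE 0.218, adjusted p 5.98e-05). The angiotensin-converting enzyme ace (log2 fold change −0.94, SE 0.116), the RNA-editing cofactor a1cf (log2 fold change −0.61, SE 0.0760), the oxygen sensor egln2 (log2 fold change −1.06, SE 0.107) and the muscle phosphofructokinase pfkma (log2 fold change −0.66, SE 0.0686) fell as well. The rest, plekhs1, zanl, ankrd9, urgcp, lgals1l1, b3gnt7, acot19 and s100a10a, had log2 fold changes of −4.41 to −0.98.

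Families read by the letters of their symbols before the first digit gave the same kinds of count over stems with at least 15 tested genes. The stem with the highest share called lower was ugt, with 7 of 23 genes, 30.4% against 3.39% of all genes. Next came klf, Krüppel-like transcription factors, with 6 of 20 lower and 2 higher. The stems sult (3 of 16), cyp (11 of 67), col (7 of 49), stk (3 of 22), s (2 of 15) and nr (4 of 31) followed. The stem with the highest share called higher was ddx, RNA helicases, with 5 of 30 genes, 16.7% against 2.93% of all genes. Next by that share were pou (2 of 15), srsf (2 of 15), irf (2 of 16) and dhrs (2 of 17). Then came f (2 of 17), nudt (2 of 18) and b (4 of 39). Of these, all but b rest on 2 called genes, and 1-letter stems hold unrelated symbols. Stems in both directions were taken from the top of a ranking of all stems with at least 15 tested genes. A high share can therefore come from selection alone, and whether any stem exceeded that was not tested. Zinc finger genes with a znf symbol had 6 of 269 higher and 1 lower, below the shares over all genes in both directions. Called zinc finger genes numbered 7 with all libraries, against 1 on leaving out DMSO library 4, 2 on leaving out DMSO library 1 and 3 on leaving out DMSO library 2. By the DESeq2 Wald test 12 were called.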

How the data were processed

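Gene counts were deposited by the authors as 1 table with a column per library, per the file headers. Per the submitters' processing notes, reads were trimmed with Trim Galore 0.6.10, aligned with STAR 2.7.1a to GRCz11 and counted with featureCounts. Whether counting used strand, and how multi-mapping reads were handled, is not given in the sources used here, so overlapping and antisense genes and near-identical copies are uncertain, and 577 symbols belong to several identifiers. Per the labels, library preparation enriched poly(A) RNA and kept strand.

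All 12 libraries entered 1 edgeR 4.0.16 quasi-likelihood fit (R 4.3.3) with a mean per group, TMM scaling and a filterByExpr minimum count of 10. The contrast was testosterone minus DMSO, two-sided, with Benjamini-Hochberg adjustment at 0.05. SE is the log2 fold change over the root of F. CPM uses TMM library sizes. The test was run on simulated counts in which all groups shared the same spread for each gene. It was therefore not checked under the unequal spread of the testosterone and DMSO libraries. Clutch numbers in the labels mark a shared clutch. Deviations of same-clutch libraries from their group means correlated at −0.0114, −0.0226 and 0.0322 across genes, and the clutch block was an alternative, as were DESeq2 1.42.0 and the settings in the closing section. Separate clutches are the replicates, and each group has 3.

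The gene lists, members and alternatives were chosen with earlier results of these data known, so no list is independent evidence. Named genes were drawn from the first 8 called members of a list by absolute log2 fold change and from defining members of lists with few calls. Called members of some lists, such as neurons and ion channels, were counted but not named. Outside lists, the named genes were the 15 higher and 15 lower with the smallest p, a mean of at least 1 CPM in a group and no overlap. agr2, cdx1b, cry-dash, cyp46a1.1, dpp4, ebp, hmgcs1, idi1, mogat2, mvda, nop56, nr1d2a, nsdhl, pkp1b, prss1, slc5a1, srebf2, ugt2a4 and vil1 were named after their values were seen. A few list members are not reported here by name, though counts over lists include them. No sequences or positions were used here.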

Additional observations from a re-analysis of the deposited data

How the results depend on the processing

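The number of called genes was 1278 (592 higher, 686 lower). It was 1291 with DESeq2 size factors, 1370 with no filter on low counts, 1162 in a fit of the 6 libraries alone, 1663 by the DESeq2 Wald test and 1308 with the gene length trend removed, all within 1.5 times. With clutch as a replicate block, which pairs the libraries of a clutch, 1082 genes were called (490 higher, 592 lower), of which 1041 were shared, and none of the 191 called genes named here lost its call. Leaving out 1 library gave 624 to 1166 called genes, 247 to 503 higher and 377 to 663 lower. Of the 191 named genes, 187 kept their call in each of the 12 alternatives and 4 lost it when a library was left out. Of these 4, 1 also lost it in the fit of the 6 libraries alone. None of the 191 changed direction, while some named genes that were not called, such as ar, did. Of all 1278 called genes, 609 were also called on leaving out DMSO library 1, 717 without DMSO library 2 and 688 without DMSO library 4. The share kept among named genes therefore does not stand for all called genes. The log2 fold change of no called and named gene moved by over 1.5 times. This limit compares log2 values, so large changes could move further in fold. Over the alternatives, tdo2a ran from −7.94 to −6.01 and slc38a3a from −4.2 to −2.76 on the log2 scale. Gene lengths were spans in another assembly than that used for counting, found for 85.9% of tested genes. Testosterone library 1 had the fewest counts, 12668572, which limits genes near 1 CPM.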

Other observations

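In the growth hormone and insulin-like growth factor axis 4 of 21 tested genes were higher and 1 lower. Called growth axis genes numbered 5 with all libraries, against 0 on leaving out DMSO library 1, 1 on leaving out testosterone library 4 or DMSO library 4 and 3 on leaving out testosterone library 1 or DMSO library 2. Among 19 calcium-regulating hormones and transporters 2 were lower. Called calcium-regulating genes numbered 2 with all libraries, against 0 on leaving out testosterone library 2 or DMSO library 1 or 4 and 1 on leaving out testosterone library 1 or DMSO library 2. Of 34 hypoxia-responsive genes 5 were lower, with a median of −0.07. Called hypoxia-responsive genes numbered 5 with all libraries, against 1 on leaving out DMSO library 2 and 2 on leaving out testosterone library 1, 2 or 4 or DMSO library 1 or 4. Of 21 genes linked to the pregnane X receptor, a sensor of drugs and steroids, 7 were lower and 1 higher, with a median of −0.24. The transporter abcb5 had 226, 229 and 180.2 CPM with testosterone, against 127, 143 and 136 CPM with DMSO, and rose (log2 fold change 0.65, SE 0.125, adjusted p 0.00623). Called pregnane X receptor genes numbered 8 with all libraries, against 3 on leaving out DMSO library 1 or 4, 4 on leaving out testosterone library 2 or DMSO library 2 and 5 with clutch as a replicate block. Of 45 ATP-binding cassette transporters 2 were higher and 4 lower. The exporter abcg2a had 20.5, 21.2 and 25.7 CPM with testosterone, against 36.6, 31.6 and 34.6 CPM with DMSO, and fell (log2 fold change −0.60, SE 0.110, adjusted p 0.00436). Called cassette transporter genes numbered 6 with all libraries, against 3 on leaving out DMSO library 1 or 4 and 11 by the DESeq2 Wald test.

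Of 29 genes of iron and copper handling 2 were higher and 1 lower. Higher iron and copper genes numbered 2 with all libraries, against 1 on leaving out testosterone library 2 or 4 or DMSO library 1, 2 or 4 or in a fit of the 6 libraries alone. Lower ones numbered 1 with all libraries, against 2 on leaving out testosterone library 4. The copper-containing ferroxidase relative hephl1a had 15.8, 22.7 and 19.9 CPM with testosterone, against 13.1, 10.1 and 11.9 CPM with DMSO, and rose (log2 fold change 0.74, SE 0.137, adjusted p 0.00452). In the bone and tooth list 4 of 23 were lower. Called bone and tooth genes numbered 4 with all libraries, against 2 on leaving out DMSO library 1. Of 30 cartilage and notochord genes 1 was higher and 1 lower, 6.67% called against 6.32% of all genes. Called cartilage and notochord genes numbered 2 with all libraries, against 0 on leaving out DMSO library 1 and 1 on leaving out testosterone library 1 or DMSO library 2 or 4. Of 95 synaptic genes 2 were higher and 1 lower, 3.16% called against 6.32% of all genes. Their median of −0.14 was −0.0 on leaving out testosterone library 2. Called synaptic genes numbered 3 with all libraries, against 0 on leaving out DMSO library 1 or 4 and 1 on leaving out DMSO library 2. In the retinal pigment epithelium list 2 of 18 were higher and 1 lower. Called retinal pigment epithelium genes numbered 3 with all libraries, against 1 on leaving out testosterone library 2 or DMSO library 1, 2 or 4. Of 40 proteasome subunits 2 were lower, 5.0% called against 6.32% of all genes. Called proteasome genes numbered 2 with all libraries, against 0 on leaving out testosterone library 4 or DMSO library 1 or 4 and 1 on leaving out testosterone library 1 or 2 or DMSO library 2. In retinoic acid signalling 1 of 19 was higher and 1 lower. Called retinoic acid genes numbered 2 with all libraries, against 0 on leaving out DMSO library 1, 1 on leaving out testosterone library 2 or DMSO library 2 or 4 and 1 with clutch as a replicate block. Of 41 metalloproteinases and inhibitors 1 was lower, 2.44% called against 6.32% of all genes. Called metalloproteinase genes numbered 1 with all libraries, against 0 on leaving out testosterone library 1, 2 or 4 or DMSO library 1, 2 or 4 and 0 with clutch as a replicate block.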
